A study of Mus musculus with 4 samples.

Results

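LSK cells of SFRP5-transgenic mice were compared with LSK cells of their wild-type (WT) littermates, by the labelled sort and genotype of each array. This took 2 of the 4 arrays of the series, 1 for each genotype. LSK cells are bone marrow cells without lineage markers, with high c-kit and with Sca-1, and all mice were adult. The other 2 arrays hold a sort of the same genotypes that is enriched for common lymphoid progenitors (CLP: no lineage markers, low c-kit, low Sca-1, IL7Rα positive). RNA of freshly isolated cells was amplified, labelled with Cy3 and hybridised to single-colour Agilent arrays, and the study asked which genes respond to the overexpressed SFRP5. The promoter and the copy number of the transgene, the number and sex of the mice and any pooling are not given by the sources used here.

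SFRP5 belongs to the secreted Frizzled-related proteins, which bind Wnt ligands outside the cell and keep them from their Frizzled and LRP receptors. In the canonical branch, Wnt binding stabilises beta-catenin, which acts with TCF and LEF factors on target genes, while noncanonical branches act through planar cell polarity proteins, JNK and calcium. The LSK compartment contains the haematopoietic stem cells and the multipotent progenitors, whose balance of rest, division and lineage choice is influenced by Wnt, Notch and TGF-beta signals from their niche.

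Kit and Ly6a, the genes behind the c-kit and Sca-1 gates, differed little between the 2 LSK arrays. Levels are given as log2 signal relative to the 75th percentile of the same array, and differences as SFRP5 minus WT on that log2 scale, so that 1 stands for 2-fold. Kit, the stem cell factor receptor behind the c-kit gate, stood at 5.08 in WT and 5.18 in SFRP5, and Ly6a, the Sca-1 gene, at 1.35 and 1.02. Flt3, a cytokine receptor of multipotent progenitors, stood at 2.95 and 3.10, although its further probes differed by -0.72 and -1.01. Il7r, the receptor chain of the CLP gate, was the exception, at -0.51 in WT and 0.89 in SFRP5. Of the genes of lineage-gate surface proteins, 10 were measured. By their brightest probe all lay within 2-fold, from Cd5 (a T cell antigen) at 0.71 to Cd4 at -0.42. Some were bright on both arrays, with Itgam at 8.19 in WT and 8.18 in SFRP5 and Cd4 at 2.89 and 2.47. Further Itgam probes differed by -2.03 and 0.41. Similar levels on both arrays therefore do not check the absence of lineage markers. Cd8b1 and Ms4a1 were not well above background on either array. Cd8a and Klrb1c were above background in WT alone, at least 1.72-fold and 2.48-fold higher there.

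With 1 array per group there is no replicate check, no difference was tested between genotypes, and precision is limited by how few arrays there are. Replicate spots of the same probe give an SD of a difference between the arrays of 0.363 log2 for the dimmest probes and 0.092 for the brightest, which covers neither mice, sorts nor amplification. WT had 70.1% of its probes well above background and SFRP5 had 65.3%. Xist, the RNA of the inactive X chromosome, was at 4.99 in SFRP5 and not well above background in WT (at least 1069-fold higher in SFRP5), while the Y-linked genes Ddx3y, Eif2s3y and Kdm5d differed by -1.35, -0.82 and -1.66 and Uty was above background in WT alone. Sex-linked expression, array row on the slide and genotype therefore cannot be told apart, and only genes of the 19 autosomes are described. The array's Sfrp5 probe stood at -0.23 in WT and -0.31 in SFRP5. The sources used here do not say if it can detect the transgene's RNA, so it does not check the labels.

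Of 23060 autosomal genes on the array, 15457 had a probe well above background on both LSK arrays and are called measured, the brightest probe standing for each. Of these, 1030 (6.66%) had a 2-fold or larger excess in SFRP5 and 1097 (7.1%) one in WT. At least 4-fold differences numbered 129 higher and 150 lower, and at least 16-fold differences 2 and 1. The spread depended on brightness. Among 7347 genes at or above the 75th percentile by mean level, 4.6% were higher and 1.97% lower by 2-fold or more, and the median was 0.176. Among the 8110 dimmer genes 8.53% were higher and 11.7% lower, with a median of -0.162. Bright genes thus tended to lie above 0 and dim genes below it. Counts of list members above 0, given below, have no share over all genes beside them and are to be read with these medians. Higher genes made up 48.4% of the 2-fold genes, but 60.3% with quantile normalization, 59.9% with cyclic loess and 34.2% in the authors' deposited signal table, where the median over all genes is shifted by -0.129. With normexp background correction the share was 63.8%, without the filter on dim probes 36.3% and over brighter probes alone 66%.

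**Figure D1:**
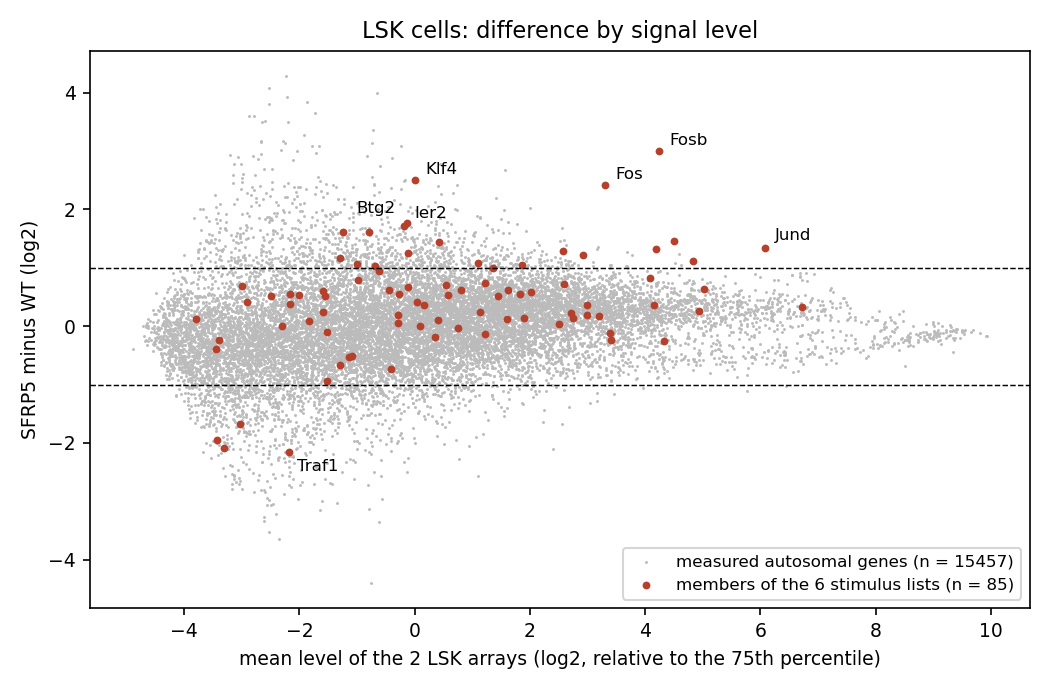
Each grey point is 1 of 15457 measured autosomal genes, with the mean level of both LSK arrays on the x axis and the SFRP5 minus WT difference on the y axis (both log2), dashed lines at 2-fold, and the 85 measured members of the 6 stimulus lists in red. The spread of all genes narrows as the level rises, and Fosb (3.0), Fos (2.41) and Jund (1.33) stand above the 2-fold line among bright genes.

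Several genes that cells switch on within minutes of a stimulus were higher in SFRP5 LSK. AP-1, a dimer of Fos-, Jun-, Maf- or ATF-family proteins, couples growth factor and stress signals to transcription. Of 14 measured AP-1 genes 6 were higher by 2-fold or more (42.9%) and 1 was lower (7.14%), 12 lay above 0, and their median was 0.65 beside 0.024 for all measured genes. Fosb stood at 2.74 in WT and 5.74 in SFRP5, a 7.99-fold difference. Its close relative Fos stood at 2.10 and 4.51, or 5.32-fold apart. Both are bright on both arrays, where differences of this size were rare.

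Among the partners of the Fos proteins, Jund stood at 5.41 in WT and 6.74 in SFRP5 (1.33), Jun at 1.33 and 2.38 (1.04), and Junb at -0.77 and -0.14 (0.63). Batf, an AP-1 factor of lymphoid and dendritic cell differentiation, stood at -1.59 and 0.02 (1.61), and Maf, a factor of macrophages and T helper cells, at -1.88 and -0.71 (1.17). The other small members were nearer to 0, with Mafk at 0.67, Atf3 at 0.38, Maff at 0.24, Jdp2 at 0.11, Fosl2 at 0.03 and Mafg at -0.25. Batf2 alone was at least 2-fold lower, from -2.19 to -3.87. Fosl1 was above background in SFRP5 alone and at least 2.55-fold higher there, and Batf3 was not above background on either array. The 14 genes thus ranged from 3.0 for Fosb to -1.68 for Batf2.

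The EGR, NR4A and IER group, which encodes zinc finger and nuclear receptor factors of the same early wave, had 2 of 14 measured members higher by 2-fold or more, 0 lower, 13 above 0 and a median of 0.57. Ier2, a small nuclear protein induced by growth factors, stood at -1.04 in WT and 0.67 in SFRP5 (1.72), and Csrnp1, a nuclear protein of the same response, at -0.29 and 1.15 (1.44). Nr4a1, an orphan nuclear receptor, stood at 3.68 and 4.50 (0.82), and Egr1, which restrains stem cell division and migration, at 4.70 and 5.33 (0.64). Ier3, Myc and Ier5 differed by 0.74, 0.72 and 0.70. Smaller differences came from Egr2 (0.51), Egr4 (0.42), Nab2 (0.36), Srf (0.17), Nab1 (0.14) and Nr4a2 (0.05), and Egr3 was lowest at -0.40. Arc was above background in SFRP5 alone, at least 2.86-fold higher, and Nr4a3 on neither array. Many small differences of 1 sign, rather than large single ones, made up this median.

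**Figure D2:**
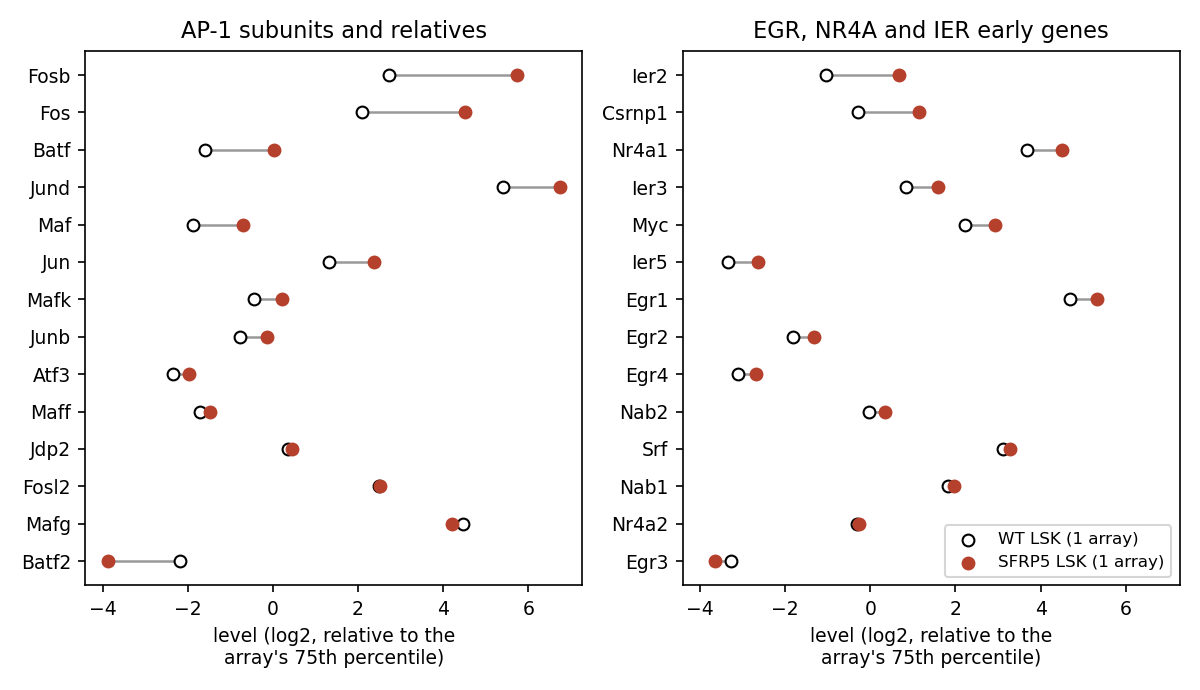
Levels of the 14 measured AP-1 genes (left) and the 14 measured EGR, NR4A and IER genes (right) on the WT (open) and SFRP5 (filled) LSK array, in log2 relative to the array's 75th percentile, ordered by their difference. The filled point lies to the right for 12 and 13 of the genes, farthest for Fosb, from 2.74 to 5.74.

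Kruppel-like factors had 4 of 11 members higher by 2-fold or more and 0 lower, with a median of 0.56. Klf4, a factor of monocyte differentiation and of cell cycle exit, stood at -1.25 in WT and 1.25 in SFRP5, 5.65-fold apart. Klf6 stood at 3.77 and 5.23 (1.46), Klf2, which keeps lymphocytes quiescent, at 1.94 and 3.23 (1.28), and Klf3 at -0.75 and 0.50 (1.25). Klf9 was lowest at -0.93, and Klf5 was at least 3.38-fold higher by a bound. Feedback genes of the same signals were also represented. Dusp1, a phosphatase that switches off MAP kinases, stood at 3.52 and 4.84 (1.32), and Spry2, an inhibitor of receptor tyrosine kinase signalling, at -1.21 and -0.18 (1.03), whereas Spred3, of a related inhibitor family, was lower, at -2.45 and -4.41. Btg2, an antiproliferative cofactor of mRNA deadenylation, stood at -1.02 and 0.74 (1.76). Zfp36, which binds AU-rich mRNAs and speeds their decay, stood at 4.28 and 5.40 (1.12).

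NF-kB genes were split. Of 20 measured, 5 were higher by 2-fold or more and 2 lower, with a median of 0.21. The cytokine gene Tnf stood at -2.05 in WT and -0.44 in SFRP5 (1.61), the chemokine gene Ccl4 at 2.30 and 3.53 (1.22) and its neighbour Ccl3 at 0.85 and 1.85 (1.0). The inhibitor Nfkbia stood at 0.56 and 1.65 (1.08) and the subunit Nfkb2 at -1.54 and -0.48 (1.06). Traf1, an adaptor of TNF receptors, went the other way from -1.1 to -3.27, as did Il1b, the gene of interleukin 1 beta, from -2.26 to -4.35. Over the union of the 6 stimulus lists, 21 of 85 genes (24.7%) were higher by 2-fold or more and 4 (4.71%) lower. Of the 85, 67 lay above 0, and the median was 0.51.

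The promoters of 4 of these genes are shown because the early genes shared a direction and the cyclic AMP response element (CRE) is a textbook element of such promoters. The 250 bases upstream of the RefSeq start were searched on both strands for TGACGTCA and for its short form TGACG, which the full element contains on each strand. The sequences are those of RefSeq on GRCm38.p6, in the direction of the gene, with every TGACG of either strand in capitals. Fos lies at chr12:85473640-85473889 on the plus strand, Fosb at chr7:19310046-19310295, Btg2 at chr1:134079156-134079405 and Dusp1 at chr17:26508473-26508722, all 3 on the minus strand.

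Fos: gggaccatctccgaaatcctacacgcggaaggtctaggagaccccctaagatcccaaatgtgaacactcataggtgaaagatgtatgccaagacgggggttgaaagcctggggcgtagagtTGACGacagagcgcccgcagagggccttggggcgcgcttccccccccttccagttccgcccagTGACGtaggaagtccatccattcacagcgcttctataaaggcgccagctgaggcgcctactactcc
Fosb: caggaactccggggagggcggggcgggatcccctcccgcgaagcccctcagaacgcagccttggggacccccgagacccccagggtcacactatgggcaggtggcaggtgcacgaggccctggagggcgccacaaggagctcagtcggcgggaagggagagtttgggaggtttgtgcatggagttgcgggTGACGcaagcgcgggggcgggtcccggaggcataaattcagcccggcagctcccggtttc
Btg2: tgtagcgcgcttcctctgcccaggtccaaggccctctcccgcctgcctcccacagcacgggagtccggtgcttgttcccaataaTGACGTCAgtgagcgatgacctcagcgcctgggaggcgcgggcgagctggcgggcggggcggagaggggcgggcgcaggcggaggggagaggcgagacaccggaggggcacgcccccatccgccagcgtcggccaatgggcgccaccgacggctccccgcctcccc
Dusp1: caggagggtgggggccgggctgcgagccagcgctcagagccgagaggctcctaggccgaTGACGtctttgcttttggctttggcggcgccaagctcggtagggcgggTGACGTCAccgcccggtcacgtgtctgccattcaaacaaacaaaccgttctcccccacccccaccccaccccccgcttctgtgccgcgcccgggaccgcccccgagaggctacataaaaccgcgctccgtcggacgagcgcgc

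Fos carried 2 short elements and Fosb 1, while Btg2 and Dusp1 each carried a full TGACGTCA, found in 1.58% of the 31396 promoters of the table (autosomes other than 18). The short form was found in 17.9% of them. Of the 21 stimulus genes at least 2-fold higher, 18 had a promoter in the table, and 9 of these (50%) held TGACG in at least 1 listed promoter. The same was true of 35 of 72 measured stimulus genes (48.6%) and of 27.4% of 11390 measured genes with a promoter. For TGACG the share among the higher genes is therefore close to that of the stimulus genes as a whole. The full TGACGTCA was held by 2 of the 18 (11.1%), namely Btg2 and Dusp1, which are both shown here. It was held by 5 of the 72 (6.94%) and by 2.79% of the 11390. A match is a description of letters and does not show a bound site.

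Of 3 measured metallothioneins, small metal-binding proteins induced by zinc and glucocorticoids, Mt1 and Mt2 were higher and Mt3, named after its value was seen, lay near 0, at -1.77 in WT and -1.90 in SFRP5. Mt2 stood at -1.79 in WT and 1.30 in SFRP5, 8.53-fold apart, and Mt1 at -2.62 and -0.20, 5.35-fold apart, although a further probe of Mt1 differed by 0.07. In the CLP sort the same probes differed by -1.04 for Mt2 and -0.20 for Mt1. The upstream 250 bases of Mt2 are shown as the best-known metal-responsive promoter, at chr8:94172368-94172617 on the plus strand of GRCm38.p6, with the core of the metal response element (TGCACNC or TGCGCNC, either strand) in capitals.

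Mt2: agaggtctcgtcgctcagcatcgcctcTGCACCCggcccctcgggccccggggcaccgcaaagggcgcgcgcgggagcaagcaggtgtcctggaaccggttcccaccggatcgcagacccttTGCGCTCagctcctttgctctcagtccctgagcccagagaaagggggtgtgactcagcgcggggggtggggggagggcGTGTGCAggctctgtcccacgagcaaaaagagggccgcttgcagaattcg

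It held 3 such cores, and 21.6% of all promoters of the table held at least 1. Other metal and redox genes did not share the difference. Of the 17 measured genes of the metallothionein and NRF2 list, 2 were higher by 2-fold or more and 1 was lower, with Nqo1, a quinone reductase of the NRF2 response, at -0.35 in WT and -1.64 in SFRP5. The zinc exporter Slc30a1, named here after its value was seen, differed by 0.26. Of 19 circadian and glucocorticoid-responsive genes 3 were higher by 2-fold or more and 0 lower, with a median of 0.09. Sgk1, a kinase induced by glucocorticoids, stood at -3.06 and -1.53, and the clock genes Per1 and Per3 at 0.47 and 1.93 and at -1.74 and -0.47, but a further Per1 probe differed by 0.12. Among 18 targets of the stress factor ATF4, 3 were higher and 1 was lower. Nupr1, a stress-induced chromatin protein, and Sesn2, an inhibitor of mTORC1, both differed by 1.65, while Trib3, a pseudokinase of the same response, stood at -0.98 and -4.26.

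Granule genes of the eosinophil lineage were higher in SFRP5 LSK. The list of mast cell, basophil and eosinophil genes had 19 measured members, of which 9 were higher by 2-fold or more (47.4%) and 0 lower, and their median was 0.99. Prg2, the eosinophil major basic protein, stood at 0.31 in WT and 2.50 in SFRP5, and Epx, the eosinophil peroxidase, at -1.91 and 0.51. The eosinophil ribonuclease genes followed, with Ear1 at -0.95 and 1.83, Ear12 at -2.52 and -0.60, Ear6 at -3.82 and -1.93, Ear2 at -1.09 and 0.06 and Ear10 at -0.65 and 0.43. These ribonucleases are near-identical copies, so that their probes may read the same transcripts and are not independent.

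Other members of the list varied. Il5ra, the eosinophil growth factor receptor, stood at -0.44 and -0.84, Siglecf at -0.98 and -0.78 and the mast cell carboxypeptidase Cpa3 at -0.63 and -0.43 (these 3 were named after their values were seen). Mcpt4, a connective tissue mast cell protease, was 14.1-fold higher, from -4.43 to -0.61, and Hdc, the histamine-forming enzyme, 3.82-fold higher, from -4.38 to -2.44. In contrast the basophil protease Mcpt8 was above background in WT alone and at least 4.44-fold higher there, with Mcpt2 and Il4 at least 2.71-fold and 2.66-fold higher there. The list's summed linear level was 16.5 in WT and 27.7 in SFRP5, and 11 of its 35 members, including Fcer1a, Ms4a2 and Cma1, were above background on neither array. Without the filter on dim probes the list median was 0.10. A different share of such cells in the gate and a different level per cell cannot be told apart in sorted bulk RNA, here and for every group that follows.

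Genes of the primary granules and of granulocyte-monocyte progenitors had 4 of 23 members higher by 2-fold or more and 1 lower, 21 above 0 and a median of 0.58. F13a1, a coagulation factor subunit of monocytes and megakaryocytes, stood at -0.67 in WT and 1.6 in SFRP5, and its further probe differed by 1.90. Hp (haptoglobin) stood at -1.64 and 0.33, the neutrophil elastase gene Elane at -1.36 and 0.42 and its neighbouring protease Prtn3 at -0.34 and 0.82. Ms4a3, a marker of the same progenitors, stood at -1.82 and -4.15 and was the exception. Among 18 genes of secondary granules and mature neutrophils 4 were higher and 1 was lower. Ngp stood at -3.79 and 0.05, S100a9 at 0.20 and 2.07, S100a8 at -3.29 and -1.65 and Chil3 at -4.41 and -3.36, while Retnlg stood at -1.48 and -3.81. Bounds went both ways, with Ltf (lactoferrin) and Wfdc21 at least 3.10-fold and 2.68-fold higher in SFRP5 and Mmp8 at least 8.05-fold higher in WT. The other measured members lay within 2-fold by their brightest probe, from Lyz2 at 0.87 to Trem1 at -0.53. Among them Camp differed by -0.30 (further probe -0.65) and Lcn2 by -0.35. The summed level of the neutrophil list was 165 in WT and 121 in SFRP5. That sum rests mostly on Trem1, the brightest member, at 7.28 and 6.75, and says little about the other genes.

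Some myeloid transcription factors were higher in SFRP5 LSK, while growth factor receptors of the same list varied. Of 20 measured myeloid factors and growth factor receptors, 3 were higher by 2-fold or more and 0 lower. Besides Klf4 these were Cebpa, which is needed to form granulocyte-monocyte progenitors, at 0.88 in WT and 2.10 in SFRP5, and Cebpb, which drives granulopoiesis under stress, at 0.96 and 2.13. Cebpd was above background in SFRP5 alone and at least 13.6-fold higher there. Among the receptors Csf2rb, Csf2rb2, Il5ra and Csf3r differed by -0.61, -0.41, -0.40 and -0.34. Further probes gave 1.18 for Csf2rb and 0.94 for Csf2rb2. Il6ra differed by 0.14. Il3ra was above background in SFRP5, at -0.33, but its probe had no value in WT, so no difference is given. Monocyte, macrophage and dendritic cell genes were mixed, with 3 of 25 higher, 2 lower and a median of 0.15. The complement gene C1qc stood at -3.88 and -1.48, the iron exporter Slc40a1 at -2.70 and -0.73 and Spic, a factor of red pulp macrophages, at -3.15 and -1.49, while Axl stood at -0.52 and -2.89 and C1qa, encoding another chain of the same complement complex as C1qc, at -1.55 and -2.61. The 2 C1q chains thus differed in opposite directions.

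Megakaryocyte and platelet genes had 0 of 24 members higher by 2-fold or more and 4 lower (16.7%), with a median of -0.22 that turned to 0.17 over brighter probes alone. Tubb1, the platelet beta-tubulin, stood at -1.37 in WT and -4.21 in SFRP5 and differed by -2.08 in CLP. F2rl2, a thrombin receptor chain, stood at 0.06 and -2.05, and Gp1ba, of the receptor for von Willebrand factor, at -3.41 and -4.43. Rab27b, a granule transport protein, stood at 0.57 and -0.46, but its further probe differed by 0.89. Erythroid genes showed no common direction, with 3 of 25 higher, 1 lower and a median of 0.06. The membrane skeleton gene Ank1 stood at -0.54 and 0.79, Tspo2 at -0.54 and 0.73 and Fech, the last enzyme of haem synthesis, at -1.65 and -0.52, while the blood group gene Kel stood at -3.47 and -4.63.

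Bone matrix genes were also higher, among a list of osteoblast, stromal and endothelial genes with 4 of 17 measured members higher by 2-fold or more, 1 lower and a median of 0.34. Bglap (osteocalcin) stood at -2.65 in WT and 1.34 in SFRP5, 15.9-fold apart, and Bglap3 at -1.28 and 0.42 with a further probe at 2.69. Bglap, Bglap2 and Bglap3 are close copies, so the source of each signal is uncertain. Col1a2, a chain of type I collagen, stood at -1.25 and 0.26, and the matrix protein gene Sparc at -2.46 and -1.27. A further 5 members were at least 2-fold higher by a bound, being above background in SFRP5 alone. These were Bglap2 (at least 24.3-fold), the osteocyte gene Dmp1 (12-fold), Col5a1 (7.96-fold), Col1a1 (7.03-fold) and the bone sialoprotein gene Ibsp (3.07-fold).

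The osteoblast factors Runx2, at 1.2 and 1.52, and Sp7, at -2.51 and -2.66, lay within 2-fold by their brightest probe. Both were named after their values were seen. Further Runx2 probes differed by -2.40 and 1.08, in opposite directions. Cxcl12, the chemokine of marrow stromal cells, was lower, from -1.66 to -3.07. Lpl and Flt4 were above background in WT alone, at least 2.54-fold and 2.42-fold higher there. Alpl, Spp1, Col3a1, Pdgfra and Cdh5 were above background on neither array, as were 3 more of the list's 35 members, and its summed level was 14.4 in WT and 22.4 in SFRP5. In CLP Bglap and Bglap3 differed by 1.98 and 1.56, and Col1a2 and Sparc by 0.41 and 0.51. The part that other cells in the sort may have in these differences was not tested.

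**Figure D3:**
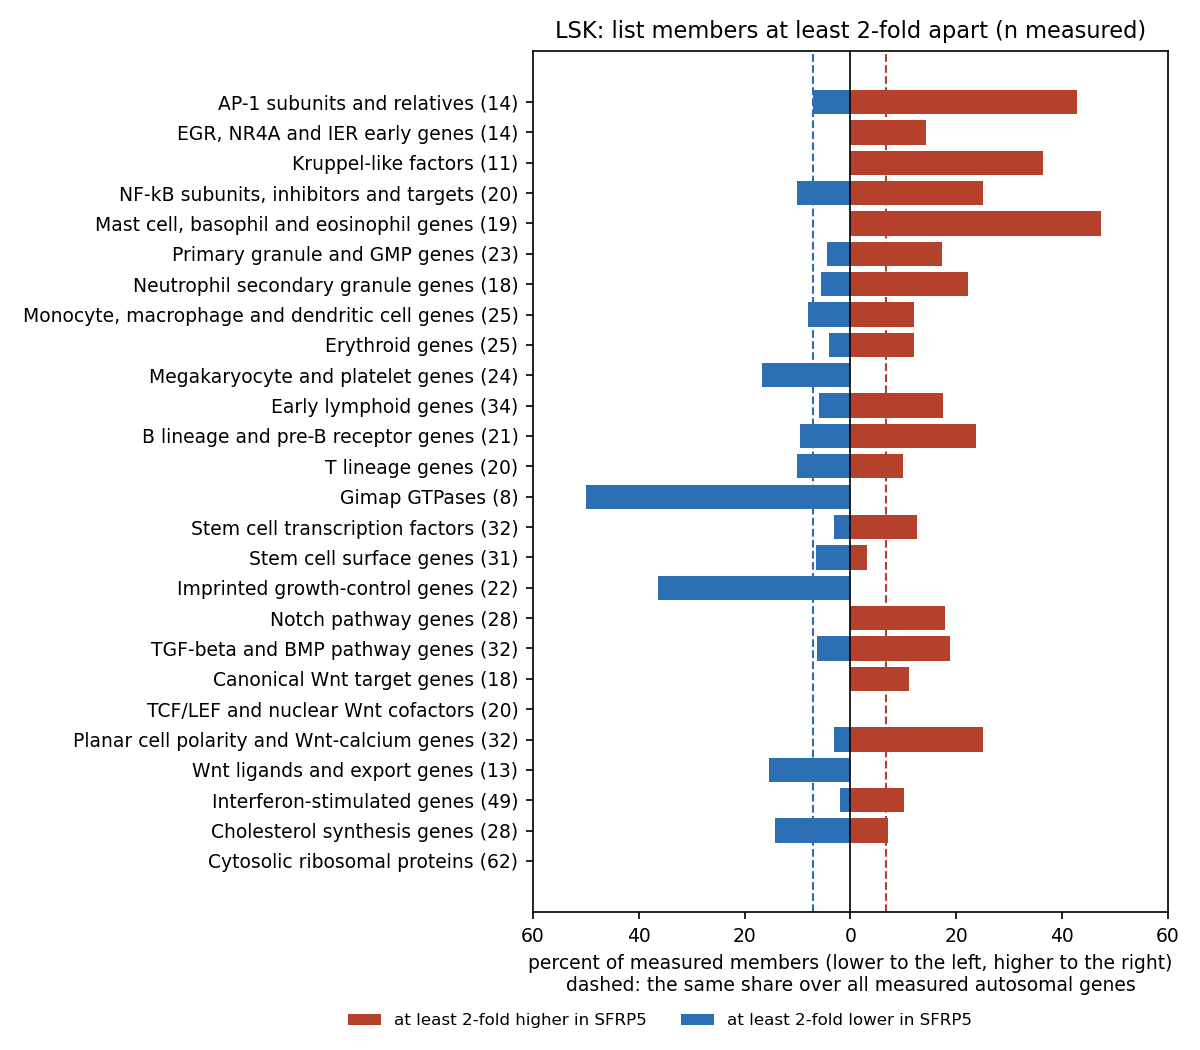
Percent of the measured members of 26 gene lists that were at least 2-fold higher (right, red) or lower (left, blue) in SFRP5 LSK, with the number of measured members in brackets. The dashed lines mark 6.66% and 7.1%, the same shares over all measured genes, which mast cell, basophil and eosinophil genes (47.4%) exceed on the right and Gimap genes (50%) on the left.

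Early lymphoid genes had 6 of 34 members higher by 2-fold or more and 2 lower. Of these 34, 26 lay above 0, with a median of 0.48. Ltb, which encodes lymphotoxin beta, stood at -0.47 in WT and 1.94 in SFRP5, Blnk, the adaptor of the pre-B-cell receptor, at -3.07 and -1.03, and Id2, an inhibitor of E proteins, at -3.36 and -1.88. The recombinase gene Rag2 stood at 0.31 and 1.39 and the homing receptor Ccr7 at -2.74 and -1.70. Ccr9, the receptor that guides progenitors to the thymus, stood at 1.0 and -0.51, and Ly6d, which marks B-cell-biased progenitors, at -2.40 and -3.41. Within the B lineage list 5 of 21 were higher and 2 lower. The surrogate light chain genes Vpreb1 and Vpreb2, which are near-identical, differed by 1.44 and 1.1, and the gene Vpreb3 by 1.96. Igll1, of the same receptor as Vpreb1 and Vpreb2, stood at -1.78 and -3.15. The B-cell commitment factor Pax5 stood at 0.42 and -1.32, with a further Pax5 probe at 0.27. Spib, Blk and Bank1 were above background in WT alone, at least 6.6-fold, 3.30-fold and 2.42-fold higher there. In the other direction Bst1 was above background in SFRP5 alone and at least 9.33-fold higher there. Components of 1 receptor, Vpreb1 and Igll1, thus differed in opposite directions.

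The Gimap genes, a family of GTPases that stand side by side on chromosome 6 and act in lymphocyte survival, were lower in part. Of 8 measured, 0 were higher by 2-fold or more and 4 lower, with a median of -0.66. Gimap4 stood at 1.44 in WT and -2.95 in SFRP5, 21.0-fold apart, and its further probes differed by -2.21 and -1.57. Gimap5 stood at -1.45 and -2.81, Gimap3 at -2.11 and -3.23 and Gimap8 at 4.50 and 3.43. Gimap7 and Gimap1 were highest, at 0.35 and 0.22. In CLP these 4 differed by -0.63 for Gimap4, -1.62 for Gimap5, 1.0 for Gimap3 and 0.14 for Gimap8, so that the sign was not shared. Among 20 measured T lineage genes 2 were higher and 2 lower. Cd28, the costimulatory receptor, stood at 1.91 and -0.37, while Icos stood at -2.82 and -1.47 and Bcl11b, the factor of T cell commitment, at -3.73 and -2.68.

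Most stem cell transcription factors lay within 2-fold. Of 32 measured, 4 were higher by 2-fold or more and 1 lower, 27 lay above 0 and the median was 0.34. Myct1, a nuclear target of MYC, stood at 1.45 in WT and 2.85 in SFRP5, although its further probe differed by 0.24. Hoxb5, a marker of long-term stem cells, stood at -3.31 and -1.95, and Nfix, which supports stem cell survival, at 1.45 and 2.50 with a further probe at 0.56. Foxo3, a factor of stem cell quiescence, stood at 3.97 and 5.21, but its further probe differed by -1.50 and the mean of its probes by -0.13. Mecom, a regulator of stem cell self-renewal, was lower by both of its probes, at -0.65 and -1.96 by the brighter one and with a difference of -1.82 by the other. Of 31 stem cell surface genes 1 was higher and 2 lower, with the calcium channel gene Trpc6 at -1.6 and 0.76, Sult1a1 at -0.83 and -2.15 and Ctnnal1, an alpha-catenin-like gene, at -0.84 and -2.82, of which a further probe differed by -0.12. Shares of 12.5% and 3.12% for the factors, and 3.23% and 6.45% for the surface genes, lay near or below those of other genes, apart from the higher factors.

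Hox genes, which set the identity and self-renewal of progenitors, showed no common direction, with 2 of 15 higher, 1 lower and a median of -0.04. Besides Hoxb5, Hoxa6 stood at -0.73 in WT and 0.44 in SFRP5, and Hoxa4 at -1.23 and -2.65. Hoxb6, beside Hoxb5 in its cluster, was above background in SFRP5 alone, at least 20.5-fold higher, at -0.72. Hoxd13 was above background in WT alone, at least 4.65-fold higher.

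Imprinted genes were mostly lower in SFRP5 LSK by their brightest probe. These genes are expressed from 1 parental copy, and many of them regulate growth and are active in long-term stem cells. Of 22 measured, 0 were higher by 2-fold or more and 8 lower (36.4%), 6 lay above 0 and the median was -0.64. Most are dim, and over brighter probes alone the median turned to 0.26. Kcnq1ot1, the long RNA that silences the Cdkn1c domain, stood at 1.11 in WT and -1.39 in SFRP5, and its further probe differed by -1.11. Nnat, a small membrane protein, stood at -1.83 and -3.95, Grb10, an inhibitor of insulin and growth factor receptors, at -2.19 and -4.25, and Gnasas1, an antisense RNA of the Gnas locus, at -0.08 and -2.04.

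The other imprinted genes at least 2-fold lower were Phlda2, a brake on placental growth, at -2.54 and -4.34, Peg10, a gene derived from a retrotransposon, at -2.60 and -4.22, the Notch-like ligand gene Dlk1 at -1.27 and -2.34 and Mirg, of the same locus, at -0.59 and -1.62. Further probes gave 0.74 for Peg10 and -0.02 for Mirg, opposite to or far from the brighter probe. Some members within 2-fold by their brightest probe had further probes at least 2-fold higher in SFRP5. These were Mest (-0.57, further probe 2.17), Ddc (-0.91, further probe 1.03) and Plagl1 (0.18, further probes 0.12, 1.13 and 1.51). Igf2, Meg3 and Snrpn were above background in WT alone, at least 2.15-fold, 2.58-fold and 2.78-fold higher there. Impact, a regulator of translation, and the growth factor receptor Igf2r were highest, at 0.79 and 0.52. In CLP 19 of these genes were measured, with 0 at least 2-fold either way and a median of 0.08. The difference between sorts was not tested.

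Notch pathway genes were higher in part. Ligands of the Delta and Jagged families release the Notch intracellular domain, which acts with RBPJ on the Hes and Hey genes. Of 28 measured, 5 were higher by 2-fold or more (17.9%) and 0 lower, 21 lay above 0 and the median was 0.43. The ligand gene Jag2 stood at -3.82 in WT and -0.67 in SFRP5, 8.84-fold apart. The target genes Hey1 and Hes1 stood at -3.32 and -1.1 and at -2.27 and -0.31. Rbpj stood at 1.35 and 2.60, although its further probe differed by 0.07. The lowest members were the ubiquitin ligase gene Dtx3 at -0.50 and Psen2 at -0.45, and Notch4 and Dll1 were above background in WT alone, at least 3.29-fold and 2.34-fold higher there. The receptor genes Notch1 and Notch2 and the target gene Hes5, named after their values were seen, differed by 0.27, 0.43 and 0.43. In CLP the list median was -0.05, and Hey1 and Hes1 differed by 0.10 and 0.54.

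**Figure D4:**
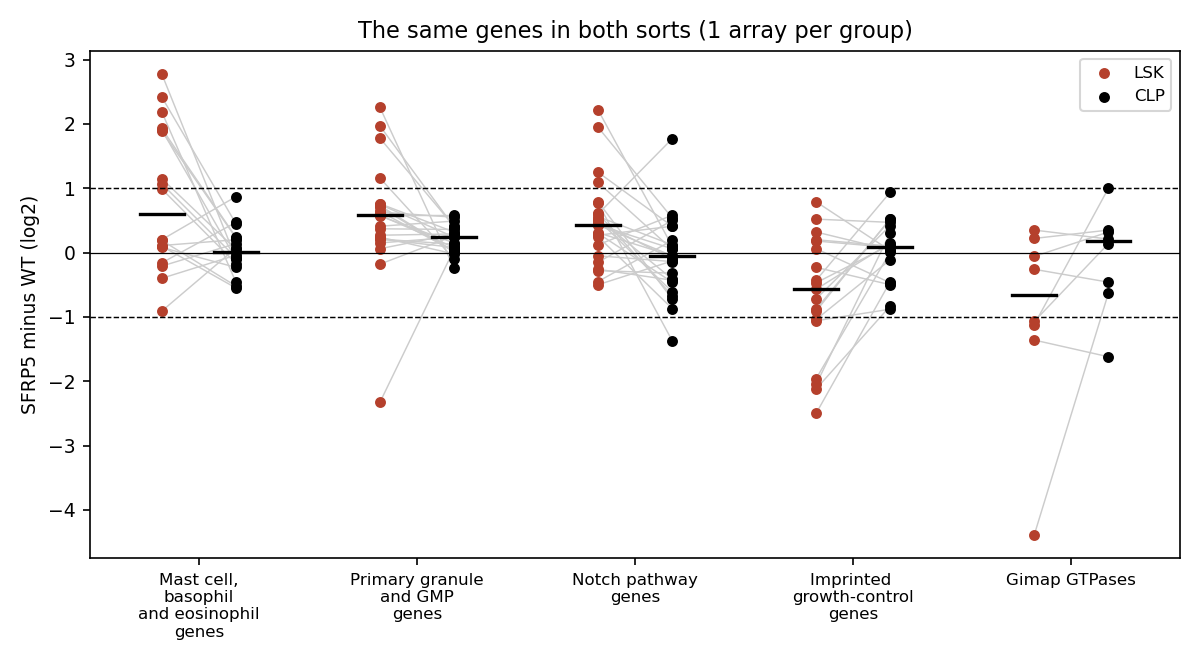
SFRP5 minus WT difference (log2) of each list member that was measured in both sorts, in LSK (red) and CLP (black), with lines joining the same gene, bars at the medians and dashed lines at 2-fold; Mcpt4 and Jag2, among others, were not measured in CLP. Mast cell, basophil and eosinophil genes have a median of 0.01 in CLP and imprinted genes one of 0.08, while Gimap4 is lowest in LSK at -4.39.

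TGF-beta and BMP genes had 6 of 32 members higher by 2-fold or more and 2 lower, with a median of 0.18. Values of the Id genes, classical BMP targets that block E-protein factors, were above 0 for all 3 members measured, with Id1 at -4.25 in WT and -1.08 in SFRP5 (9.0-fold), Id2 at -3.36 and -1.88 and Id3 at -3.68 and -2.75. The activin receptor genes Acvr1b and Acvr2b stood at -0.51 and 1.24 and at -0.24 and 1.51, and a further Acvr1b probe differed by 0.64. The ubiquitin ligase gene Smurf1 stood at -0.68 and 0.71 and the ligand gene Tgfb1 at 1.12 and 2.21. Lower was the corepressor gene Tgif2, at 1.46 and 0.38, with further probes at -0.85 and 0.52. Acvr2b also differed by 1.85 in CLP, whereas Id1 differed by 0.27 there. In the hedgehog pathway 2 of 13 were higher and 0 lower, with the receptor gene Ptch1 at -1.92 and 0.10 (further probe 0.45) and the cilium gene Evc2 at -3.76 and -2.11.

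Genes of the canonical Wnt branch, which the transgene product acts on, were mostly within 2-fold in LSK. Of the Wnt ligand and export genes 13 were measured, 0 higher by 2-fold or more and 2 lower, with a median of -0.40 that turned to 0.01 without the dim filter and 0.20 over brighter probes alone. Wnt8b stood at -0.89 in WT and -3.46 in SFRP5 and Wnt6 at -1.86 and -3.06. The noncanonical ligand gene Wnt5a was bright, at 3.12 and 2.57. Wnt11, Wnt4, Wnt9b, Wnt16 and Wnt1 differed by -0.40, -0.55, -0.79, -0.80 and -0.20. Above 0 were Wnt2b (0.78), the export receptor gene Wls (0.59), Wnt5b (0.38), Wnt10b (0.22) and Wnt7a (0.03). Wnt7b was above background in WT alone, and Wnt2, Wnt3, Wnt3a, Wnt8a, Wnt9a, Wnt10a and the 4 R-spondin genes on neither array.

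Receptors showed no common direction, with 1 of 12 higher and 1 lower and a median of -0.05. Lgr4, an R-spondin receptor, stood at -3.88 in WT and -2.32 in SFRP5, and the Wnt receptor Fzd6 at 1.17 and -0.19. The coreceptors Lrp5 and Lrp6 differed by 0.34 and 0.25, although a further Lrp6 probe differed by 1.08. Ptk7 differed by 0.69, and the remaining receptors and turnover genes lay between Fzd7 at 0.16 and Lgr6 at -0.88. Among these Fzd5 was at -0.78 by its brightest probe and at 1.47 by the further one. Among 6 measured secreted antagonists all lay within 2-fold, with Kremen1, a coreceptor of Dickkopf proteins, highest at 0.76 and Notum, the enzyme that inactivates Wnt proteins, lowest at -0.28. Sfrp1, Sfrp2, Frzb, Wif1, Dkk1, Dkk2, Dkk3, Sost, Cer1 and Draxin were above background on neither array, and Sfrp4 in WT alone, at least 2.73-fold higher there.

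Inside the cell, Ctnnb1, the beta-catenin gene itself, stood at 5.04 on both arrays. Of 26 genes of the destruction complex and Dishevelled group 1 was higher by 2-fold or more and 1 lower, with a median of 0.20. Btrc, the ubiquitin ligase adaptor that marks beta-catenin for decay, stood at -0.68 in WT and 0.59 in SFRP5 with a further probe at 0.07, and Wtip at -1.75 and -4.35. Axin1 differed by 0.75, Apc by -0.28, and Dvl1, Dvl2 and Dvl3 by 0.14, 0.36 and 0.39. By their brightest probe none of the 20 measured TCF/LEF factors and cofactors reached 2-fold, with a median of 0.25. They ran from Ctnnbip1, an inhibitor of beta-catenin and TCF, at 0.72 to Ctbp2 at -0.36. Further probes beyond 2-fold were those of Tle2 (-1.20) and Bcl9 (1.06), in opposite directions. Tcf7 and Tcf7l2 differed by 0.44 and -0.07 (further Tcf7l2 probe 0.98), and Lef1 was above background in SFRP5 alone. Of 18 canonical target genes 2 were higher and 0 lower, with a median of 0.03, and both of them, Id2 and Jun, also answer to other signals and stand in lists above. The target genes Myc and Ccnd1 differed by 0.72 and -0.24, Tcf7 by 0.44, Nkd2 by -0.52 and Znrf3 by -0.56, while Axin2 was above background by different probes on the 2 arrays and so gave no difference.

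The planar cell polarity and Wnt-calcium genes differed from the other Wnt groups in their count, with 8 of 32 higher by 2-fold or more (25%) and 1 lower, although the median was -0.02 and 15 lay above 0. The phospholipase gene Plcb1, which releases calcium, stood at -4.24 in WT and -1.08 in SFRP5, and its relative Plcb4 at 0.40 and 1.45, with further probes from -0.63 to 0.73. The protein kinase C genes Prkca and Prkcd stood at 0.99 and 2.14 and at 2.22 and 3.30, with further probes at 0.39 and 0.55. Camk2b, a calcium-dependent kinase subunit, was higher by both probes, at -2.76 and -1.26 by the brighter one and by 1.6 with the other. The polarity genes Prickle1 and Vangl1 stood at -1.96 and -0.02 and at -3.83 and -2.55. The calcium-responsive factor Nfatc3 stood at 2.20 and 3.25 (further probe 0.20), while Nfatc4 stood at -2.74 and -4.05. Daam2 was above background in WT alone, at least 7.12-fold higher there. Prickle1, Plcb1, Plcb4 and Prkca were also higher in CLP, by 1.51, 1.61, 1.15 and 1.84. Nfatc3 differed by 0.28 in CLP, and Prkcd, Camk2b and Vangl1 by -0.28, -0.39 and -0.78. Scrib (0.21), another polarity gene, and Ppp3ca (-0.03), of calcineurin, were named after their values were seen.

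Interferon-stimulated genes had 5 of 49 members higher by 2-fold or more and 1 lower, shares of 10.2% and 2.04%, with a median of 0.11 that was below 0, at -0.02, with the authors' deposited values. The antiviral GTPase genes Mx2 and Mx1 stood at -3.96 in WT and -1.71 in SFRP5 and at -1.95 and -0.41, and the guanylate-binding protein genes Gbp3 and Gbp7 at -0.74 and 0.70 and at 1.42 and 2.73. Ifit3 stood at -2.09 and -1.05. Xaf1 stood at 1.93 and 0.74, but its further probe differed by 3.37 and the mean of its probes by 1.09. Gbp5, a relative of Gbp3, differed by -0.97, so the family had no common direction.

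Among 39 cytokine receptor genes 5 were higher by 2-fold or more and 2 lower, with a median of 0.09 that turned to -0.03 in the authors' table. Lifr, the receptor of leukaemia inhibitory factor, stood at -4.29 in WT and -1.68 in SFRP5 with a further probe within 0.01 of 0, and Il1rl1, the receptor of interleukin 33 on mast cells and innate lymphoid cells, at -2.70 and -0.48. Besides Il7r, Tnfrsf1a stood at 0.34 and 1.51 and Il12rb1 at -0.69 and 0.35, whereas Il12rb2 stood at 1.32 and -0.36 with a further probe at -0.86, and Prlr at -3.01 and -4.18. Downstream, Socs2, a feedback inhibitor of growth hormone and cytokine receptors, was above 0 by every probe, at -1.89 and -0.24 by the brightest and by 1.47 and 0.65 with the others. Socs6 was below 0 by every probe, at -0.46 and -2.19 and by -0.69 and -0.71, and Socs1 stood at -2.97 and -4.04. The apoptosis genes of the BCL2 family had 3 of 24 higher and 0 lower, with the BH3-only gene Bmf at -4.51 and -1.62, Casp9 at 0.40 and 1.61 and the mitophagy receptor gene Bnip3 at 0.64 and 1.78, by 1.15 with its further probe.

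Of 28 cholesterol and lipid synthesis genes 4 were at least 2-fold lower (14.3%) and 2 higher (7.14%), with a median of -0.02. The synthesis genes Fasn and Fdps stood at -1.70 in WT and -3.0 in SFRP5 and at 0.75 and -0.45. In the other direction the sterol carrier gene Stard4 stood at -0.94 and 0.59 (further probe 0.21), and Hsd17b7 at -2.68 and -1.39, with a further probe at -2.67.

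Among 20 measured targets of p53 there were 3 higher by 2-fold or more and 1 lower, with a median of 0.32. Rrm2b, a ribonucleotide reductase subunit of the damage response, stood at -1.47 in WT and 0.58 in SFRP5, with a further probe at 0.40. Zmat3, an RNA-binding protein, stood at -4.42 and -3.11 and Gtse1, a microtubule protein, at 0.28 and 1.47. Perp, an apoptosis effector, was lower at -0.35 and -1.94, and was lower in CLP too, by -2.50. Cdkn1a, the cell cycle inhibitor best known as a p53 target and named after its value was seen, differed by 0.38. In the Hippo pathway 0 of 19 were higher and 2 lower, with a median of -0.03. These were Tead2, described with the multi-probe genes, and Frmd6 at -2.81 and -3.89, while Tead3 was above background in SFRP5 alone, at least 8.66-fold higher, and Tead4 in WT alone, at least 3.07-fold higher there.

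A stricter view keeps genes whose probes speak with 1 voice. Of 4269 genes with at least 2 measured probes, every probe was at least 2-fold higher in 58 (1.36%) and at least 2-fold lower in 42 (0.984%). Across these genes the differences of the brightest and the next probe had a Pearson r of 0.19, and 0.30 across the 1461 genes with both probes bright, where genes are not independent replicates. Single-probe differences in the preceding groups share this limit.

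Sorl1, a sorting receptor of endosomes, stood at -2.86 in WT and -0.59 in SFRP5, with probe differences of 2.27 and 2.37, and Enho, which encodes the peptide adropin, at -1.30 and 0.79, with 2.09 and 2.39. Mrpl43, a protein of the mitochondrial ribosome, stood at 0.99 and 3.03. Acbd4, which tethers peroxisomes to the endoplasmic reticulum, stood at 0.22 and 2.90. Plekha7, a junction protein, stood at -2.43 and -0.25 and Parvb, an integrin-linked adaptor, at -3.82 and -2.24. Rpusd3, of mitochondrial RNA modification, stood at -2.06 and -0.21 and Flad1, the FAD synthase, at -1.56 and 0.01. The channel-like gene Ttyh2 at -1.19 and 0.48 and the calcium-binding Pef1 at -2.97 and -1.28, with F13a1 and Bglap3 given above, complete the first 12. These genes share no single pathway.

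Among those lower by every probe, Tead2, the DNA-binding partner of the Hippo cofactors YAP and TAZ, stood at 0.17 in WT and -2.86 in SFRP5, with probe differences of -3.03 and -2.74. Neb, a giant actin-binding protein of muscle, stood at -0.54 and -4.18 and the chemokine receptor gene Cxcr6 at 0.74 and -1.17. Rfx7, a winged-helix factor of lymphocyte metabolism, stood at -1.15 and -2.95 and the tubulin gene Tubb2b at -0.49 and -2.26. The lipid droplet gene Fitm2 stood at -0.97 and -3.39 and the small GTPase gene Rnd2 at -0.90 and -2.51. Mapk1ip1 stood at -0.36 and -1.97, Ccnyl1, a cyclin-like gene, at 0.44 and -1.16, Auts2, a Polycomb-associated gene, at 0.54 and -1.05 and Mtfr1, of mitochondrial fission, at 0.50 and -0.99. Gimap4, described above, completes them. In CLP 21 of the 54 genes higher by every probe in LSK lay above 0 and 3 were at least 2-fold higher, and 21 of 35 lower genes lay below 0 and 2 were at least 2-fold lower. Probes that shared a direction in LSK thus often had the other one in CLP.

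**Figure D5:**
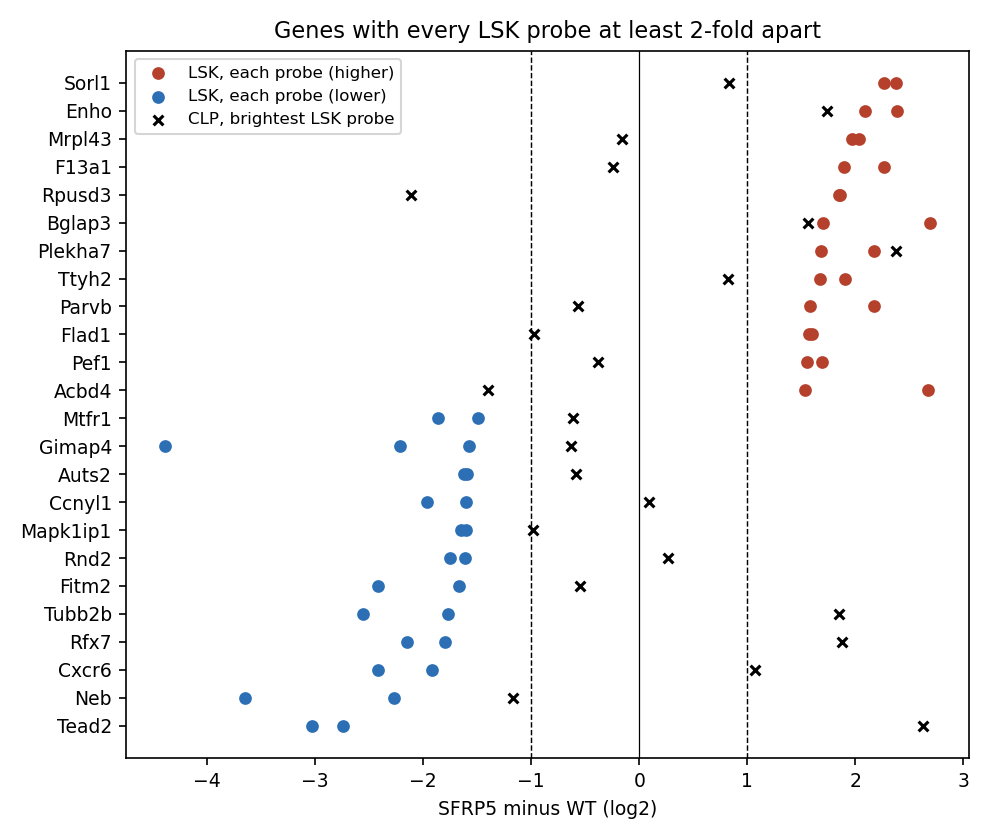
Difference SFRP5 minus WT (log2) of each measured LSK probe (circles) for the 12 genes highest and the 12 lowest by their smallest probe difference, with the CLP difference of the brightest LSK probe as a cross and dashed lines at 2-fold. All LSK probes lie beyond the lines by construction, while CLP crosses run from -2.11 (Rpusd3) to 2.63 (Tead2).

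Among genes whose probe reached the 75th percentile on its brighter array, the 10 highest also held several known from single tissues. Bdh1, a mitochondrial ketone body enzyme, stood at -3.56 in WT and 0.10 in SFRP5, Insl6, a relaxin-family gene of the testis, at -2.40 and 0.96, and Faap100, of the Fanconi anaemia core complex, at -2.31 and 0.82. The kinase gene Dclk2 stood at -2.29 and 0.63 and the zinc finger gene Zfp503 at -1.83 and 1.06, with a further Zfp503 probe at -0.63. Bglap, Ngp, Mt2, Fosb and Ear1 complete them. At the other end, besides Gimap4, Tead2, Kcnq1ot1 and Cd28, Arhgap35, a GTPase-activating protein gene, stood at 0.55 and -2.17 and Kazald1 at 0.25 and -2.37. Further probes did not repeat the other 4, with Tcp11 at 0.54 and -1.96 but 0.90 by its further probe, Zranb3 at 0.13 and -2.19 but 1.24, Zfp397 at 0.08 and -2.22 but -0.20, and Usp20 at 0.55 and -1.74 but -0.33.

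Few of the LSK differences recurred in the other sort. Of 14529 genes measured on all 4 arrays, 924 were at least 2-fold higher in LSK and 578 (3.98%) in CLP, and 79 were higher in both, which is 8.55% of the former and 13.7% of the latter. A further 104 of the 924 were at least 2-fold lower in CLP. For lower genes the counts were 954, 587 (4.04%) and 80 (8.39% and 13.6%), with 97 opposite. High in both were Fosb (3.0 in LSK and 2.53 in CLP), the phosphodiesterase gene Pde8a (2.35 and 2.69) and Plekha7 (2.17 and 2.38), and the lowest were Tubb1 (-2.84 and -2.08) and the hyaluronan synthase gene Has3 (-2.69 and -1.96). Pde8a and Has3 were named after their values were seen. Fos (1.84 in CLP), Klf4 (1.64), Klf6 (1.16), Klf2 (2.13), Dusp1 (1.02), Zfp36 (1.79), Csrnp1 (1.48), Jun (1.13) and Ccl4 (1.37) were early genes at least 2-fold higher in both sorts, each sort on its own pair of arrays. Genotype, sex-linked expression and array row divide both pairs in the same way.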

How the data were processed

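Scanner files of 4 single-colour Agilent mouse arrays were used, extracted with Feature Extraction 10.10 per the submitters' processing notes (10.10.1.1 per the file headers). The deposited intensity (gProcessedSignal) is already background-subtracted and is not normalized between arrays; the authors' signal table, also an intensity, is each array's deposited signal with a factor per array whose basis the sources used here do not give. Control spots and spots with an outlier flag were left out.

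From these, log2 intensity minus the array's 75th percentile was computed with Python 3.11.15, pandas 2.3.3 and numpy 2.4.6. Spots of a probe were averaged, probes not well above background on both LSK arrays were set aside, and the brightest measured probe stood for a gene. A fold with only 1 array above background is a lower bound: the bright array's level over the higher of the dim probe's own level and the lowest signal well above background. Quantile, cyclic loess, median scaling, normexp with offset 50, no filter on dim probes, brighter probes alone, the mean of probes and the authors' table were alternatives (limma 3.58.1, R 4.3.3). The calculation was tested on simulated data. Gene symbols came from the authors' table, updated through Entrez identifiers where the RefSeq table holds them, and promoters from RefSeq on GRCm38.p6.

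Named genes were the 12 per direction with every one of at least 2 probes 2-fold apart, the 10 highest and lowest among bright genes, the extremes and 2-fold members of described lists, and all AP-1, EGR, gate and Wnt genes; some members of the lists are not reported here. Of 1678 entries in 60 gene lists, 1656 were on the array. The members and lists were chosen with earlier results of these data known. Design settings that need replicates (a test, a block, leaving out an array) could not be run with 1 array per group.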

Additional observations from a re-analysis of the deposited data

Results flagged for a closer look

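Some genes lay at least 2-fold in opposite directions in the LSK and CLP sorts, each with 1 array per genotype, and the difference between sorts was not tested. Higher in SFRP5 LSK and lower in SFRP5 CLP were Rpusd3 (1.85 in LSK and -2.11 in CLP), Acbd4 (2.68 and -1.40), Ngp (3.84 and -1.52), Mt2 (3.09 and -1.04) and Zfp503 (2.89 and -1.36). Lower in LSK and higher in CLP were Tead2 (-3.03 and 2.63), Cxcr6 (-1.91 and 1.07), Rfx7 (-1.80 and 1.88) and Tubb2b (-1.77 and 1.85).

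Xist, outside the autosomal comparison, reached 4.99 on the LSK array and 4.50 on the CLP array of SFRP5 mice, while it was not well above background in WT LSK. The part of sex-linked expression in the autosomal differences cannot be told apart from genotype.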

How the results depend on the processing

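No paired analysis was possible because each genotype has 1 LSK array, and for the same reason no array could be left out. The count of genes at least 2-fold higher, 1030, was 457 with normexp, 1704 without the dim filter and 488 over brighter probes alone, and that of lower genes, 1097, was 259, 2994 and 251. Genes higher by every probe, 58, numbered 37 in the authors' table, 14 with normexp and 22 over brighter probes. Genes lower by every probe, 42, numbered 5 with normexp, 132 without the filter and 3 over brighter probes.

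The AP-1 median of 0.65 was 0.52 in the authors' table and 1.04 both without the filter and over brighter probes. The EGR, NR4A and IER median of 0.57 was 0.44 in the authors' table, 0.37 with normexp and 0.72 over brighter probes. The imprinted median of -0.64 was -0.32 with normexp, -0.45 without the filter, -0.44 with the mean of probes and 0.26 over brighter probes. The primary granule median of 0.58 was 0.45 in the authors' table. The mast cell, basophil and eosinophil median of 0.99 was 0.86 in that table, 0.61 with normexp and 0.10 without the filter, and the Notch median of 0.43 was 0.30, 0.32 and 0.31.

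Medians near 0 changed sign: heat shock chaperones (-0.02 with quantile and cyclic loess), interferon-stimulated genes (-0.02 in the authors' table), MHC genes (-0.01 with quantile and cyclic loess), megakaryocyte genes (0.17 over brighter probes), plasma cell genes (-0.01 in the authors' table and -0.52 over brighter probes), gate genes (-0.06 with quantile, -0.05 with cyclic loess, -0.01 in the authors' table and -0.12 with the mean of probes), Wnt ligands (0.01 without the filter and 0.20 over brighter probes) and cytokine receptors (-0.03 in the authors' table). With the mean of probes Xaf1 was at 1.09, Foxo3 at -0.13 and Hsd17b7 at -0.69. Of 227 named genes of 2-fold or more, 224 kept their sign under each alternative that gave them a value. Brighter probes alone gave one for 116 of them, and classed these as unchanged. That setting can leave a gene's brightest probe, and so its value, in place. A kept sign does not mean a kept size. With normexp, 205 of the 227 values were classed as moved. Cyclic loess moved 119, quantile normalization 118, the authors' deposited values 114 and the mean of probes 54. Median scaling and leaving out the filter on dim probes kept all 227. The first shifts every gene by the same 0.051, and the second can leave the brightest probe in place. Neither therefore checks the size of these values. Normexp, the filter on dim probes and brighter probes alone moved both counts of 2-fold genes by more than 1.5 times. The cause of each change was not tested. The shift of the median of all genes over brighter probes was 0.158.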
